A study of Drosophila melanogaster with 2 samples.

Results

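Mitochondrial ribosomal protein genes encode the proteins of the ribosome that works inside mitochondria. The genes were taken from the dm6 annotation (Ensembl release 115) as every protein-coding gene whose symbol begins with mRpL, for the large subunit, or mRpS, for the small subunit. The rule gave 73 of 13968 protein-coding genes, 47 of the large and 26 of the small subunit. They were set against 1 ChIP-seq data set of D1, a Drosophila melanogaster chromosomal protein with AT-hook motifs that bind A/T-rich DNA. Chromatin came from whole pupae with a labelled age of 24 hours, of a fly line that stably carries D1 with GFP at its C-terminus, and was precipitated with an antibody against GFP. There were 2 biological replicates of this 1 group, with no other genotype, age or treatment, so no test between conditions was possible. Whole animals were used and sex was not recorded, so a peak cannot be assigned to a cell type. The sources used here do not say which tissues express the transgene.

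The data were 4 peak lists made by the authors, with 30000 peaks for replicate 1, 30000 for replicate 2, 30000 for both pooled, and 3388 that passed a filter on the irreproducible discovery rate (IDR), which are the highest pooled peaks. A gene was counted as bound in a list when a peak summit lay no more than 500 bp from any of its annotated starts. Peak signals are values set by the authors, on a scale not stated in the sources used here, and are used mainly to rank peaks within a list. Read depth is unknown, and the lists of 30000 have a fixed length. The 3 long lists include many weak peaks, with a median signal of 64.1 in the pooled list against 201 in the IDR list.

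The mitochondrial ribosome translates the few messages of the mitochondrial genome, which code for subunits of the respiratory chain and the ATP synthase. Its RNAs come from that genome, but its proteins are encoded in the nucleus, made in the cytosol and imported. Many have counterparts in the bacterial ribosome and share their numbers, while those with high numbers arose in mitochondria. The median gene length was 909 bp, against 2164.5 bp for all protein-coding genes, and 67 of the 73 (91.8%) had a single annotated start, against 73.5% of all protein-coding genes.

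The sequences under the peaks show what D1-eGFP was found on at these promoters. Each line gives 151 bases centred on the IDR summit of a bound gene, on the strand of the gene and 5′ to 3′, with uninterrupted runs of A and T of at least 8 bases in capitals. The windows are chr2L:18859354-18859504 (mRpL13), chr2L:4945410-4945560 (mRpL24), chr3L:13018004-13018154 (mRpL20), chr2L:16329223-16329373 (mRpL4), chr2L:20097297-20097447 (mRpS18B), chr3L:19255078-19255228 (mRpL21) and chr3L:18106385-18106535 (mRpS26), all on dm6. The gene is on the minus strand at each of these except mRpS26. The windows of mRpL2 and mRpL41 are not shown. The last line is a window with no summit, from mRpL33 on the minus strand at chrX:4322303-4322453. It is centred 147 bp upstream of the start, the median summit distance of the bound genes, and was shown because mRpL33 is the middle one in AT content, in 201 bp at this distance, of the 49 genes with no summit in any list.
mRpL13: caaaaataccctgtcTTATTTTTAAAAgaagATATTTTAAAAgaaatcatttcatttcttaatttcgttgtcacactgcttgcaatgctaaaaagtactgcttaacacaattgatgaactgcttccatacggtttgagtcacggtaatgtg
mRpL24: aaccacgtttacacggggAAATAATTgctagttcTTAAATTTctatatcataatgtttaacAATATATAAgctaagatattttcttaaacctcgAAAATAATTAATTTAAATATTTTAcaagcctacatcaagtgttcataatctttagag
mRpL20: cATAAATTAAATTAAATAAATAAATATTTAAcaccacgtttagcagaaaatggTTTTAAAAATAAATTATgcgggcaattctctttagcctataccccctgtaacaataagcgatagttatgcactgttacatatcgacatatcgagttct
mRpL4: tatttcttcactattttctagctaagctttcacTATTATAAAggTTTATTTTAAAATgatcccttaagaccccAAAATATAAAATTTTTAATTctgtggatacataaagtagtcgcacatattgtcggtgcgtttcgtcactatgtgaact
mRpS18B: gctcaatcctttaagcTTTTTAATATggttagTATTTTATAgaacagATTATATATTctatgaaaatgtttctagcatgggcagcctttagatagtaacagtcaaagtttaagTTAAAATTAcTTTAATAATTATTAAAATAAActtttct
mRpL21: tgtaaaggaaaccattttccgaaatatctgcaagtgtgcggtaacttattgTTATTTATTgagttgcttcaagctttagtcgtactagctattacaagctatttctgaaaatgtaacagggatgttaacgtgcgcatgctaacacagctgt
mRpS26: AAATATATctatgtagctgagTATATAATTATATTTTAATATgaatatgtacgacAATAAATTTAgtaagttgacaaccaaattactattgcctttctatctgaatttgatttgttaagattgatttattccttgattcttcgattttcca
mRpL33: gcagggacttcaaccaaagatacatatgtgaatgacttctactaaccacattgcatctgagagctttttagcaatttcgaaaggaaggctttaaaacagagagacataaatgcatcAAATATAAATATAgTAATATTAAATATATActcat

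All of the bound windows shown hold A/T runs. In the 151 bases of mRpL20 the longest run is 30 bases and AT content is 70.2%. The mRpS18B window has 5 runs of at least 8 bases and 76.2% AT, and that of mRpS26 also has 76.2% AT. The windows of mRpL20 and mRpL13 each have 2 such runs, and at mRpL13 the longest is 12 bases with 68.2% AT. The window of mRpL21 has 1 run of 9 bases and 62.9% AT, the lowest of those shown. The unbound mRpL33 window has 2 runs, the longest of 16 bases, and 68.9% AT, within the range of the bound windows shown. Its gene start is 665 bp from an IDR summit, nearer than that of any other unbound gene of the family except mRpS31 at 642 bp.

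In the IDR list 9 of the 73 genes were bound, 12.3% of them (exact Clopper-Pearson 95% interval 5.8 to 22.1), against 1180 of 13968 protein-coding genes, or 8.45%. The interval covers counting error only and holds the share of all genes inside it. The 9 genes were bound through 9 distinct peaks. Of the highest 3388 peaks of each replicate's own list, 9 genes were bound in replicate 1 and 8 in replicate 2, a mean share of 11.6% ± 0.969 (SD, n = 2), against 8.57% ± 0.127 (SD, n = 2) of all protein-coding genes. The same 6 genes were bound by both of these replicate sets, namely mRpL4, mRpL13, mRpL20, mRpL24, mRpL41 and mRpS18B. In the pooled list 19 of 73 were bound (26.0%) against 26.6% of all protein-coding genes. Replicate 1 had 21 (28.8%) against 28.7%, and replicate 2 had 17 (23.3%) against 27.5%. In both replicate lists 16 were bound (21.9%) against 22.1%. In the full lists the genes were bound about as often as all protein-coding genes, with the number of starts not taken into account. Among genes with a single start the pooled shares were 18 of 67 (26.9%) against 20.7%. Among those with several starts they were 1 of 6 (16.7%) against 43.2%.

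The shares also changed with the number of pooled peaks counted from the highest down. At 300 peaks 1 of the 73 genes was bound (1.37%) against 1.01% of all protein-coding genes. Counting the 1000 highest pooled peaks, 5 of the 73 genes were bound (6.85%) against 2.97% of all protein-coding genes. At 5000 peaks the shares were 13.7% and 11.3%, at 10000 peaks 19.2% and 16.5%, and at 20000 peaks 20.5% and 22.9%. Of the genes with any pooled summit, 9 of 19 (47.4%) also had one in the IDR list, against 31.7% of all protein-coding genes with a pooled summit. The highest signal of each IDR-bound gene had a median of 254 with a range of 161 to 737, against a median of 208 with quartiles of 165 and 291 over all IDR-bound protein-coding genes. These rest on 9 genes, and no test of the gene list was made.

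**Figure D1:**
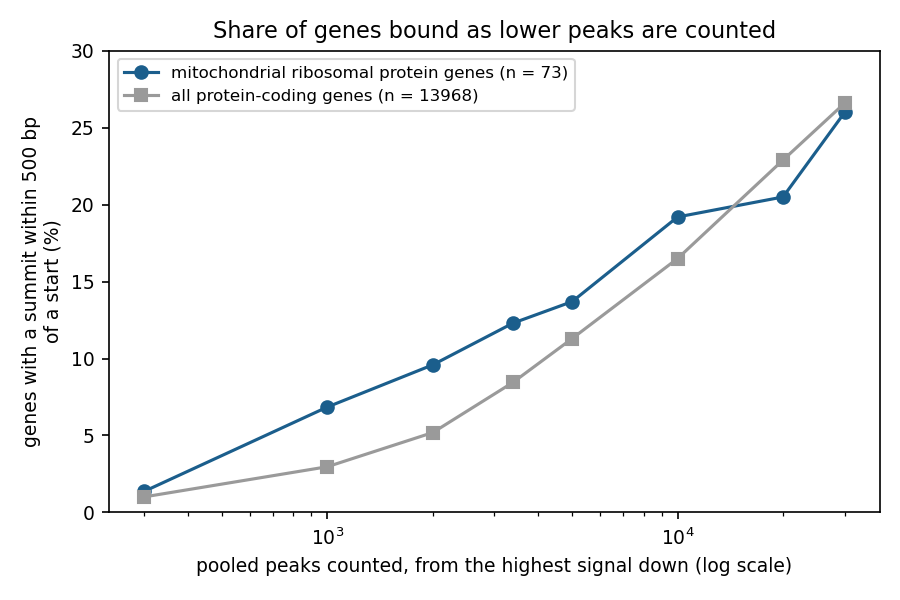
Percent of genes bound (vertical axis) as pooled peaks are counted from the highest signal down (horizontal log axis), for the 73 mitochondrial ribosomal protein genes (blue) and all 13968 protein-coding genes (grey). The blue line is above the grey at 1000 peaks (6.85% and 2.97%) and meets it at 30000 peaks (26.0% and 26.6%).

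Among large subunit genes 7 of 47 were bound in the IDR list (14.9%), and among small subunit genes 2 of 26 (7.69%), beside 8.45% of all protein-coding genes. In the pooled list the order was the other way round, with 11 of 47 large (23.4%) and 8 of 26 small subunit genes (30.8%), beside 26.6%. The highest was mRpL41, which encodes a protein with no bacterial counterpart. Its signal was 737 in the IDR list (rank 27), 382 in replicate 1 (rank 20) and 353 in replicate 2 (rank 34). The gene (FBgn0034001) lies on 2R at 15217024 to 15217617 on the minus strand, and the peak at 15217614 to 15217860 has its summit 147 bp upstream of the start. It was the top gene of the family in all lists, and the only one of the 9 whose peak, with 247 bp, was not 420 bp wide. A non-coding RNA gene, lncRNA:CR44463, has a start 431 bp from the summit, and the head of CG8079 is 615 bp from it.

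The next signals were at mRpL13 and mRpL24, whose Escherichia coli counterparts L13 and L24 bind the ribosomal RNA early in large subunit assembly. At mRpL13 (FBgn0032720, 2L at 18858028 to 18859248, minus strand) the signal was 380 in the IDR list, 182 in replicate 1 and 195 in replicate 2, with ranks of 310, 364 and 322. These are close in both replicates. CG10602 has the same start as mRpL13 in the annotation, so the peak belongs equally to both genes. At mRpL24 (FBgn0031651, 2L at 4944256 to 4945361, minus strand) the signal was 371, with 217 in replicate 1 and 142 in replicate 2, at ranks of 332, 206 and 892. Here replicate 1 was the higher one. The neighbour betaggt-I, which encodes a subunit of a protein prenyltransferase, starts 218 bp away on the other strand.

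mRpL20 and mRpL4 had nearly the same signal. The bacterial L20 is another early assembly protein, and L4 lines the tunnel through which the new peptide leaves the ribosome. At mRpL20 (FBgn0036335, 3L at 13017149 to 13017867, minus strand) the IDR signal was 256, with 90.9 in replicate 1 and 159 in replicate 2. At mRpL4 (FBgn0001995, 2L at 16328059 to 16329132, minus strand) it was 254, with 107 in replicate 1 and 173 in replicate 2. Replicate 2 was the higher one at both. mRpL2, whose bacterial counterpart lies next to the peptidyl transferase centre, had 188, with 65.4 in replicate 1 and 136 in replicate 2 (FBgn0036135, 3L at 11120847 to 11122041, plus strand). mRpL21 had the lowest signal of the bound large subunit genes, 162, with 65.9 in replicate 1 and 97.5 in replicate 2 (FBgn0036853, 3L at 19253290 to 19255061, minus strand). Their replicate 1 ranks, 3817 and 3766, are below the 3388 highest.

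The bound small subunit genes were mRpS18B, 1 of several fly genes for proteins of the S18 family, and mRpS26, a gene of the high-number class. At mRpS18B (FBgn0032849, 2L at 20096329 to 20097253, minus strand) the IDR signal was 224, with 82.3 in replicate 1 and 132 in replicate 2. The other genes of that family, mRpS18A and mRpS18C, had no summit in any list. At mRpS26 (FBgn0036774, 3L at 18106579 to 18107499, plus strand) it was 161, with 94.8 in replicate 1 and 62.9 in replicate 2, and its rank in replicate 2 was 5728. Of the 42 genes that carry a bacterial number (up to 36 in the large and 21 in the small subunit) 7 were bound in the IDR list (16.7%), and of the 31 with a higher number 2 were (6.45%), beside 8.45% of all protein-coding genes. In the pooled list these were 31.0% and 19.4%, beside 26.6%. The pooled shares include the same 7 and 2 genes, because the IDR peaks are part of that list, so they are not a second observation.

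**Figure D2:**
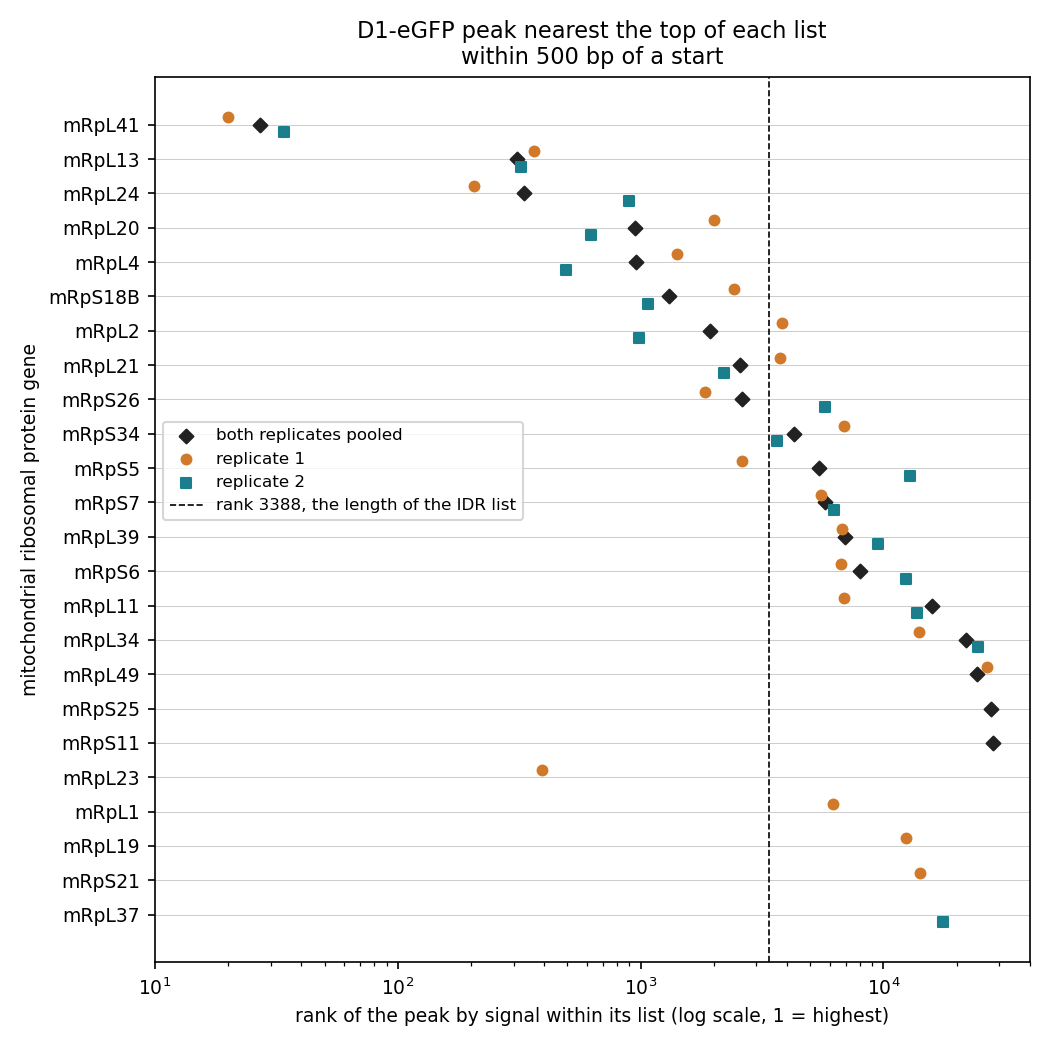
Rank by signal (horizontal log axis, 1 is the highest) of the highest peak within 500 bp of a start, for the 24 mitochondrial ribosomal protein genes with a summit in any list, in the pooled list (black), replicate 1 (orange) and replicate 2 (teal). The 9 genes left of the dashed line at 3388 by their pooled rank are those of the IDR list, from mRpL41 at rank 27 to mRpS26 at rank 2624, and mRpL23 has a point of replicate 1 alone.

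The replicates differed at single genes. Signals of the lists were not on a scale known to be shared, and the median over all peaks was 31.4 in replicate 1 and 38.7 in replicate 2. Over the 9 bound genes the log2 ratio of the signal in replicate 2 to that in replicate 1 had a median of 0.57 and an SD of 0.62, from -0.62 at mRpL24 to 1.06 at mRpL2. Over 1152 protein-coding genes bound in the IDR list and in both replicate lists the median was 0.16 and the SD 0.52. Replicate 2 was higher at 6 of the 9, and the same count was not made over the 1152 genes. The pooled signal at each of the 9 was 0.909 to 1.05 times the sum of the replicates' signals. The summits of the replicates lay 5 to 97 bp apart, with a median of 46 bp, against a median of 30 bp over the 1152 genes.

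All 9 IDR summits lay upstream of the start, from 92 bp at mRpL21 to 297 bp at mRpL2, with a median of 147 bp. Over all IDR-bound protein-coding genes 83.6% of the highest summits were upstream, with a median of 177 bp. All 9 were 90 to 300 bp upstream, a range set after seeing them, so that count was fixed by the choice. The range held 50.8% of the summits of all bound genes. No gene of the family had an IDR summit downstream of its start. Per the annotation 8 of the 9 summits were intergenic, and that of mRpL2 was in an intron of its neighbour FoxK, which encodes a forkhead transcription factor. The intergenic share over all IDR-bound protein-coding genes was not computed.

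Bidirectional promoters were common in the family. Counting genes whose start faces away from a start of another gene on the opposite strand no more than 1000 bp off, 58 of 73 (79.5%) had such a head-to-head neighbour, against 39.8% of all protein-coding genes. All 58 neighbours were protein-coding and none was itself a mitochondrial ribosomal protein gene. The starts were 20 to 793 bp apart, with a median of 283 bp. In the IDR list 8 of the 58 were bound (13.8%) against 8.54% of all head-to-head protein-coding genes, and 1 of the other 15 (6.67%) against 8.39%. Among genes with a single start the shares were 9 of 67 (13.4%) against 5.76%, and with a single start and a head-to-head neighbour 8 of 53 (15.1%) against 5.85%. None of the 6 genes with several starts was bound, which allows a share of up to 50%, against 15.9% of all protein-coding genes with several starts.

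At 7 of the 8 bound head-to-head promoters the summit lay between the heads, and at 5 of these 7 the neighbour was bound as well, so the peak cannot be given to either gene alone. It was nearer to the ribosomal gene at 5 of them. At mRpL21 it was 92 bp upstream of that gene and 187 bp upstream of rept, which encodes the ATPase Reptin. At mRpS18B it was 119 bp from the gene and 209 bp from Kua, and at mRpS26 119 bp from the gene and 311 bp from CG13698. At mRpL4 and mRpL41 the neighbours CG4440 and CG8079 started 627 and 615 bp from the summit and were not bound by it. It was nearer to the neighbour at the other two, mRpL24 with 124 bp and betaggt-I with 94 bp, and mRpL20 with 212 bp and Icmt with 187 bp. Icmt encodes the methyltransferase that acts on prenylated proteins. At mRpL2 the nearest FoxK start is 64 bp away and the summit lies 233 bp inside FoxK, 139 bp upstream of another FoxK start. Counting also the shared start of CG10602, 7 of the 9 peaks lay close enough to count for another protein-coding gene. The placement counts of this paragraph were not made over all IDR-bound protein-coding genes, so they cannot be called particular to the family.

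**Figure D3:**
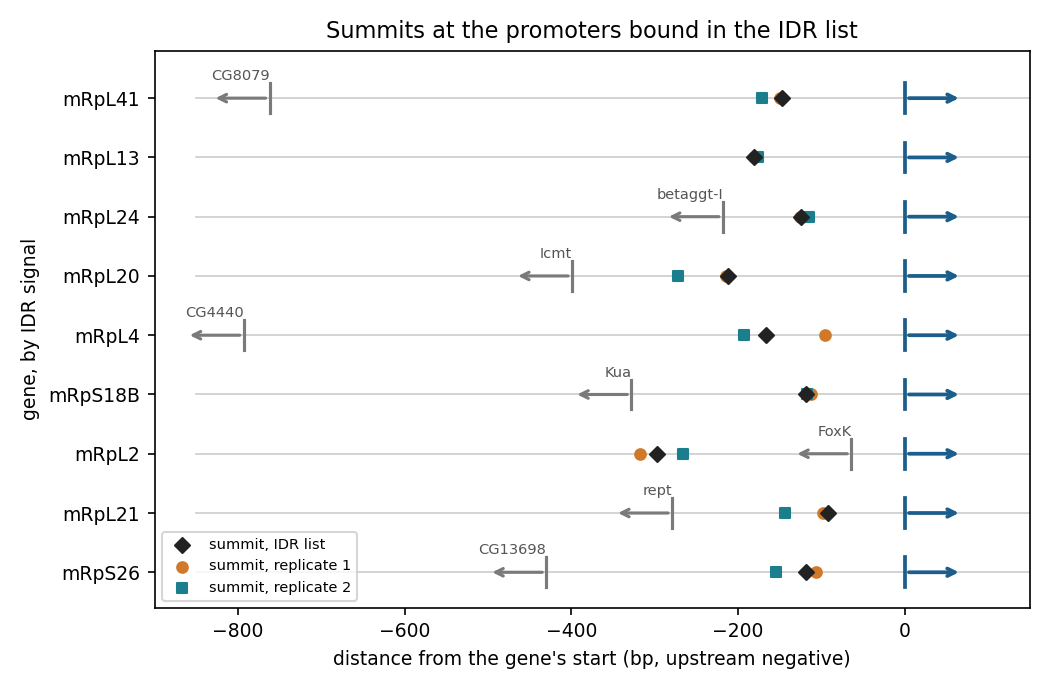
Position of summits (horizontal axis, bp from the start, upstream negative) at the 9 bound mitochondrial ribosomal protein genes, ordered by IDR signal with the highest at the top, from the IDR list (black), replicate 1 (orange) and replicate 2 (teal). The blue arrow is the start of the named gene and the grey arrow the nearest start of the head-to-head neighbour, and all IDR summits lie between 92 and 297 bp upstream.

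The bound genes were on 3 of the 5 arms that hold the family. On 2L 4 of 12 genes were bound in the IDR list (33.3%) against 9.15% of all protein-coding genes of that arm, and on 3L 4 of 17 (23.5%) against 11.7%. On 2R mRpL41 was the only 1 of 12 (8.33%) against 6.73%. None of 21 was bound on 3R, which allows a share of up to 14.3%, against 6.81%, and none of 11 on X, which allows up to 27.3%, against 6.92%. Taken by arm after seeing the values, 2L and 3L together had 8 of 29 (27.6%) against 10.5%, and 2R, 3R and X together 1 of 44 (2.27%) against 6.81%. In the pooled list these were 13 of 29 (44.8%) against 30.8%, and 6 of 44 (13.6%) against 23.5%. The IDR peaks are part of the pooled list. The pooled counts therefore include the same 8 and 1 genes and are not a second observation of the contrast. By arm the pooled list had 2 of 21 bound on 3R (9.52%) against 21.5%, 2 of 11 on X (18.2%) against 29.4%, and 2 of 12 on 2R (16.7%) against 21.2%. No member is on chromosome 4.

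**Figure D4:**
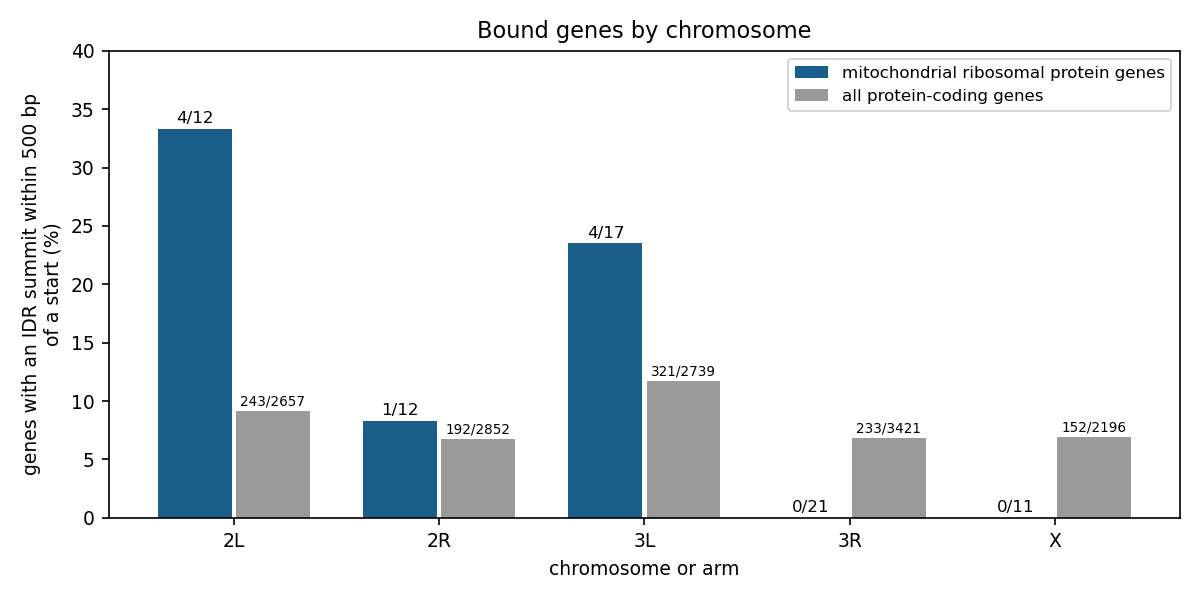
Percent of genes with an IDR summit within 500 bp of a start (bars, from 0) by chromosome arm, for the mitochondrial ribosomal protein genes (blue, left) and all protein-coding genes (grey, right), with counts above the bars. The blue bars are higher on 2L (33.3% and 9.15%) and 3L (23.5% and 11.7%) and are at 0 on 3R and X.

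Below the IDR list 10 further genes had a pooled summit. The highest was mRpS34, a high-number small subunit gene, with a pooled signal of 125, 47.9 in replicate 1 and 77.4 in replicate 2, and its summit 167 bp upstream. mRpS5 had 111, with 79.3 in replicate 1 and 42.1 in replicate 2. Unlike the 9 genes of the IDR list, its highest summit was 86 bp downstream of the nearest start, in its 5′ UTR. mRpS7, whose bacterial counterpart starts the assembly of the small subunit head, had 108 (54.1 in replicate 1, 60.2 in replicate 2), and shares its promoter with the cell cycle kinase gene Cdk1. mRpL39 had 97.8 (48.6 and 49.2 in replicates 1 and 2), with the proteasome gene Prosbeta2 on the other side, and mRpS6 had 90.6 (48.7 and 42.8). The lowest signal of the IDR list is 142. The nearest genes of the family above it were mRpS26 (161, pooled rank 2624) and mRpL21 (162, rank 2578), and the nearest below it mRpS34 (rank 4271) and mRpS5 (rank 5444).

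The remaining pooled summits were weak. mRpL11 had 62.2 and mRpL34 51.2, both with a summit in each replicate. mRpL49 had 47.9, with a summit in replicate 1 alone (22). mRpS25 had 43.7 and mRpS11 43.2, with a summit in neither replicate list. Just outside the 500 bp limit were mRpS31 and mRpL33, each with an IDR summit 642 and 665 bp from the start.

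A further 5 genes had a summit in 1 replicate list only and none in the pooled list. Such genes were about as common among all protein-coding genes. No summit in any list was found for 67.1% of the family and 65.6% of all protein-coding genes, and a pooled summit for 26.0% and 26.6%. mRpL37 had 35.2 in replicate 2. mRpL1 (50.8), mRpL19 (35.0) and mRpS21 (32.5) had summits in replicate 1. mRpL23, whose bacterial counterpart lies at the exit of the peptide tunnel, had a strong peak in replicate 1 with a signal of 176 and rank 391, 68 bp downstream of the nearest of its 3 starts. The nearest summit to that peak was 6968 bp away in the pooled list and 8273 bp away in replicate 2, although the lowest signals of those lists are 41.1 and 24.9. Of the 3388 highest peaks of replicate 1, 96 (2.83%) had no pooled summit within 500 bp, so mRpL23 was 1 of a small number of such sites, and it is not counted as bound here.

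No list had a summit near the other 49 genes, 67.1% of the family. They were, in the large subunit, mRpL3, mRpL9, mRpL10, mRpL12, mRpL14, mRpL15, mRpL16, mRpL17, mRpL18, mRpL22, mRpL27, mRpL28, mRpL30, mRpL32, mRpL33, mRpL35, mRpL36, mRpL38, mRpL40, mRpL42 to mRpL48, mRpL50 to mRpL55, and, in the small subunit, mRpS2, mRpS9, mRpS10, mRpS14, mRpS16, mRpS17, mRpS18A, mRpS18C, mRpS22, mRpS23, mRpS24, mRpS28, mRpS29, mRpS30, mRpS31, mRpS33 and mRpS35. Of all protein-coding genes 65.6% had none either. The 49 genes include core components such as mRpL3, mRpL22, a tunnel protein in bacteria, and mRpL12, of the stalk that engages translation factors. The Escherichia coli counterparts of mRpL3 and mRpL22 also bind early in large subunit assembly, like those of the bound mRpL13, mRpL20 and mRpL24.

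The sequence at the bound promoters was rich in A and T, and so was that at unbound ones. In 201 bp around the IDR summits the 9 genes had a mean AT content of 70.5% (SD 3.04, n = 9), from 65.7% at mRpL21 to 74.6% at mRpL41, against 66.8% (SD 7.33) at 1019 promoter summits of all protein-coding genes. The longest run of A or T averaged 19.0 bp (SD 5.94), from 12 to 30 bp, against 14.8 bp (SD 5.86). At the 49 genes with no summit, 201 bp centred at the same median distance from the start had 66.6% AT (SD 9.06), a median of 69.7%, and a longest run of 14.6 bp on average. In the 300 bp upstream of the 5′ end AT content was 66.7% ± 4.89 (SD, n = 9) in bound genes, 66.5% ± 6.21 (SD, n = 10) in genes of the pooled list alone and 64.7% ± 7.81 (SD, n = 54) in genes without a pooled summit. The mean over all protein-coding genes was 61.8% (SD 8.02).

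Around the starts the profile of the family stood out from that of all genes on both sides. At 150 bp upstream, in 101 bp windows, mean AT content was 69.9% in the 9 bound and 69.6% in the 64 unbound genes of the family, against 67.0% in bound and 63.8% in unbound protein-coding genes. At 200 bp downstream it was 47.9% and 48.5% in the family, against 56.1% and 52.7%. The bound and unbound genes of the family were furthest apart at 350 bp upstream, of the distances computed, with 66.3% and 59.4%. By quartiles of upstream AT content of all protein-coding genes, 32 of the 73 were in the highest, above 67.7%, where 5 of 32 (15.6%) were bound against 11.6% of all genes in it. In the lowest quartile 0 of 8 were bound, which allows a share of up to 37.5%, against 5.58%.

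**Figure D5:**
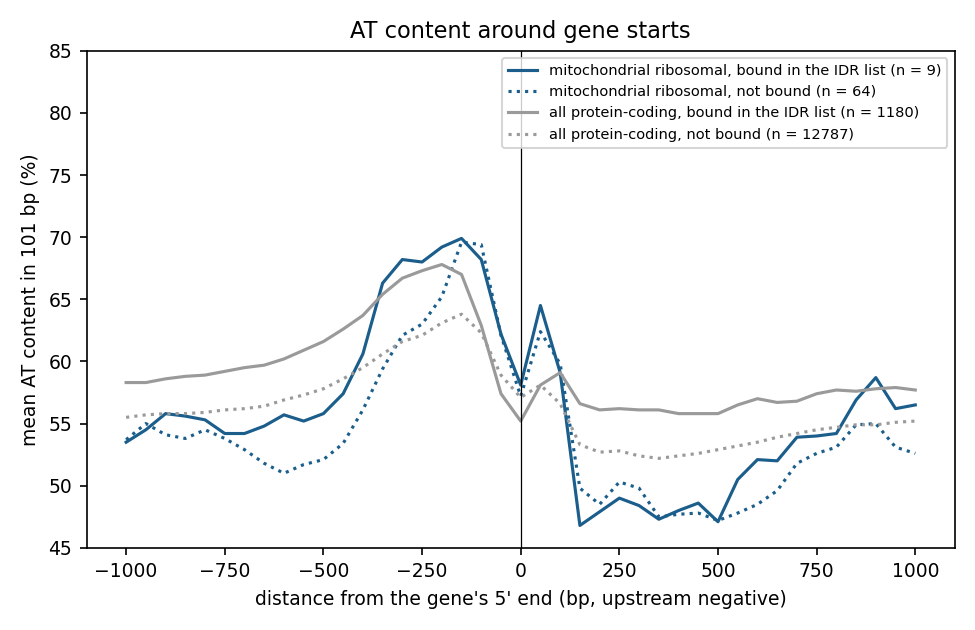
Mean AT content in 101 bp windows (vertical axis, percent, starting at 45) by distance from the 5′ end (horizontal axis, bp), for mitochondrial ribosomal protein genes (blue) and all protein-coding genes (grey), bound in the IDR list (solid) or not (dotted). Both blue lines reach about the same height 150 bp upstream (69.9% bound and 69.6% not bound).

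Of 8 words searched on both strands, AATAT, the repeat of a satellite DNA bound by D1, was in the 201 bp windows of 9 of 9 IDR summits of the family, against 76.2% of the promoter summits of all protein-coding genes. TATAAA was in 5 of 9 against 41.2%, and AAAAAAAA in 2 of 9, at mRpL2 and mRpL41, against 19.1%. ATATATAT, which can overlap AATAT and TATAAA within one run, was in none, against 6.18%. TATCGATA, the word of the factor DREF, GGTCACACT of the factor M1BP, the E-box CACGTG and GCGCATGCG, a word of the NRF-1 and Ewg type, were in none of the 9 windows, against 3.53%, 2.36%, 1.86% and 0 of 1019. In promoters, from 250 bp before to 50 bp after the 5′ end, AATAT was in 79.5% of the family against 72.1% of all protein-coding genes, TATAAA in 46.6% against 45.9%, AAAAAAAA in 15.1% against 16.0%, ATATATAT in 8.22% against 6.02%, CACGTG in 6.85% against 4.23% and GCGCATGCG in 0 of 73 against 0.501%.

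At the IDR-bound genes the words of DREF and M1BP lay near the starts. They were outside the 201 bp around the summit but reached into the D1-eGFP peak at all 4 genes that hold one. Each of these peaks is 420 bp wide, so at such distances the overlap follows from the width. The share over all bound genes was not computed. TATCGATA stood in the promoters of 15 of the 73 (20.5%), against 9.36% for all protein-coding genes, and no more than 50 bp from the 5′ end it was in 14 (19.2%) against 5.56%. GGTCACACT was in 8 of 73 promoters (11.0%) against 6.04%. Among the 9 IDR-bound genes TATCGATA began 10 bp upstream of the start at mRpL20, 4 bp upstream at mRpS18B and 19 bp downstream at mRpL4. The D1-eGFP summits of these genes lay 202, 115 and 185 bp further upstream. At mRpL13 GGTCACACT began 23 bp downstream of the start, 204 bp from the summit. Genes of the family with TATCGATA that close to the start were bound in 3 of 14, against 9.14% of all protein-coding genes with it there. Those with GGTCACACT that close were bound in 1 of 8, against 11.0%. The bound share of all protein-coding genes, with or without a word, was 8.45%. A match says only that the letters are present.

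The related lists were counted in the same way, beside 8.45% of all protein-coding genes in the IDR list and 26.6% in the pooled list, with no test made. Of 93 cytosolic ribosomal protein genes 5 were bound (5.38%), namely RpL37A (signal 201), RpS26 (189), RpS3A (160), RpS7 (145) and RpS30 (142), and 25 (26.9%) in the pooled list. Each of the 5 had a signal below the median of the 9 mitochondrial genes (254) and that of all IDR-bound protein-coding genes (208). The values overlap those of the 9, which ranged from 161 to 737. Of these genes 63.4% had a head-to-head neighbour. Of 36 other genes of mitochondrial gene expression 2 were bound (5.56%), TrpRS-m, a mitochondrial tryptophanyl-tRNA synthetase gene (205), and mEFG1, an elongation factor gene (158), and 8 (22.2%) in the pooled list. With the 3388 highest peaks of replicate 1, without replicate 2, 3 of the 93 cytosolic and 4 of the 36 other mitochondrial genes were bound, against 8.66% of all protein-coding genes. That second list holds tko and bonsai, which encode mitochondrial ribosomal proteins under other names, and neither was bound in the IDR list. Upstream AT content was 64.2% ± 6.21 (SD, n = 93) in the cytosolic and 64.2% ± 7.05 (SD, n = 36) in the other mitochondrial list, close to the 65.2% ± 7.29 (SD, n = 73) of the mitochondrial ribosomal protein genes.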

How the data were processed

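D1-eGFP ChIP-seq peaks were taken from 4 deposited lists, 1 for each of 2 replicates, 1 pooled and 1 IDR set. The notes deposited with them say that each list derives from the alignments plus 1 further file, which also entered the control-normalized signal, and the IDR set from the other 3 lists. The authors' signal per peak and the deposited -log10 q value were used as given, the latter only to describe peaks. No caller, threshold or read depth is stated in the sources used here. Coordinates are on dm6, per the labels. The NCBI Release 6 sequence and Ensembl release 115 annotation were used, and every peak ended within its chromosome. Summits were converted to 1-based positions. Genes that are not transposable elements were read, with all transcript starts.

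Bound genes, head-to-head neighbours (starts overlapping by up to 100 bp included), distances, AT content and words were counted in Python 3.11.15 with numpy 2.4.6 and pandas 2.3.3, and tested on simulated peaks. Counts were read beside the shares of all protein-coding genes, and no test was made on the gene list. Intervals are exact Clopper-Pearson at 95%, and a count of 0 was given a limit of 3 genes. The genes, related lists and words were chosen with earlier results of these data known. Named genes were those bound in the IDR list with their neighbours, the 5 highest others by pooled signal, those in 1 replicate list alone, those with no summit, and bound genes of the related lists. In the related lists 6 symbols matched no gene. Alternatives were other start windows, peak overlap, 5′ ends only, the higher-ranked 50% of the IDR list, single replicates and stricter replicate coverage. Nearby genes share peaks and are not independent.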

Additional observations from a re-analysis of the deposited data

How the results depend on the processing

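The number of mitochondrial ribosomal protein genes bound in the IDR list was 6 to 11 under every alternative, the lowest in the higher-ranked 50% of the IDR list (8.22% against 4.55% of all protein-coding genes) and the highest with starts within 1000 bp (15.1% against 10.6%) or any base of a peak within 500 bp. Within 250 bp it was 8 (11.0% against 5.71%). Without replicate 1 it was 8 (11.0% against 8.48%) and without replicate 2 it was 9 (12.3% against 8.66%), of which 8 and 7 were among the 9. Counts in the pooled list (16 to 22), in both replicate lists (12 to 19) and of head-to-head genes (53 to 58) stayed within 1.5 times. A single replicate list in place of both gave 21 (replicate 1) and 17 (replicate 2), also within 1.5 times. Mean AT content at the summits was 68.5% with starts within 1000 bp and with peak overlap, 71.5% in that higher-ranked set, 69.0% to 69.8% on single replicates, and, in windows chosen after seeing the data, 72.5% in 101 bp and 67.4% in 401 bp. The share with AATAT fell to 77.8% in 101 bp. The median pooled signal of bound genes was 143 with starts within 250 bp and 138 with starts within 1000 bp or peak overlap, against 125. Bound cytosolic ribosomal protein genes were 3 within 250 bp, 1 in that higher-ranked set, and 3 to 4 on single replicates. Other mitochondrial gene expression genes bound were 1 within 250 bp, 1 in that higher-ranked set, and 2 to 4 on single replicates. These counts are of 93 cytosolic and 36 other mitochondrial genes. The shares of all protein-coding genes at these settings were 5.71%, 4.55%, and 8.48% to 8.66%. The causes were not tested. No paired analysis was possible because there is 1 group.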

Other observations

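A list of 6 genes, mRpL3, mRpL4, mRpL13, mRpL20, mRpL22 and mRpL24, whose counterparts bind early in large subunit assembly in Escherichia coli, was drawn up after the bound genes had been seen, so its counts are a description of genes partly chosen for them, with no test. Of these, the same 4, mRpL4, mRpL13, mRpL20 and mRpL24, were bound in each of the 4 lists, which share peaks and are not independent. The shares of all protein-coding genes were 8.45% (IDR), 26.6% (pooled), 28.7% (replicate 1) and 27.5% (replicate 2). Because of how the list was chosen, its counts beside these shares say nothing about early assembly genes. Of the other 22 large subunit genes with a bacterial number 2 were bound in the IDR list, 4 in the pooled list, 7 in replicate 1 and 4 in replicate 2. These are the genes left after the 6 were taken out, so their contrast with the 6 was made by the same choice. Among the 6, mRpL3 and mRpL22, both on X, had no summit in any list.

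The replicates ranked some of the IDR-bound genes far apart. At mRpL13 the ranks were close, 364 in replicate 1 and 322 in replicate 2. At mRpS26 the ranks were 1835 in replicate 1 and 5728 in replicate 2, and at mRpL2 3817 and 987.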
